A study of Mus musculus with 2197 samples.

Results

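Neurog3 (Ngn3) is the transcription factor that starts endocrine differentiation in the embryonic pancreas. Epithelial cells of the trunk raise Neurog3 for a short time, leave the cell cycle, pass through a late precursor stage marked by Fev and then turn on hormone genes. Notch signalling between neighbouring cells holds Neurog3 down, and cells with much Neurog3 carry Notch ligands of their own. The cells described here were mouse embryonic pancreas cells with the strong signal of an Ngn3-GFP knock-in reporter (Ngn3-GFPhigh), at E14.5 (108 cells) and at E13.5 (77 cells), E being the embryonic day. They are 185 of the 2195 Smart-seq2 cells of the series. Smart-seq2 is a plate-based full-length protocol, and each cell was sequenced as a library of its own. Members were chosen by their titles, which give the sort, the day, a set number and a cell number. The cells came in 3 sets at each day, of 29, 38 and 41 cells at E14.5 and of 39, 25 and 13 cells at E13.5. All cells of both days carry the knock-in reporter allele, and no other allele or treatment is named. Because GFP stands at the Neurog3 locus, the gate itself bears on how much Neurog3 its cells hold. GFP protein can also outlast the transcript, so the gate can hold cells past the Neurog3 stage. What a set number stands for, and how many embryos went into it, is not given by the labels. The p-values judge a day difference against the spread between sets of a day, which may therefore be technical. Levels are given as CPM, the summed counts of a set scaled to a common total of gene counts, and for single cells in the same way. The comparison asks how the same sort differs between consecutive days. Cells of the same reporter strain with the weaker signal (Ngn3-GFPlow), at E14.5 and E13.5, and Ngn3-GFPhigh (51 cells in 2 sets) and Ngn3-GFPlow cells (2 sets) at E15.5 are used only to set these days in context.

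Gene counts per cell ran from 598632 to 1648445, with a median of 968299, and detected genes from 7215 to 10226. The median number of detected genes per cell was 8575, 8505 and 8590 in the E14.5 sets, against 8001, 7797 and 7787 in the E13.5 sets, so the days did not overlap. ERCC spike-ins took 3.01% to 6.83% of counts at E14.5 and 3.37% to 4.54% at E13.5. Of cells that carried at least 4 markers of another cell type at 100 CPM, 0 of 108 were found at E14.5 and 3 of 77 at E13.5, 2 on the acinar list and 1 on the neural and glial list, all 3 in set 1. No cell of either day did so for the leukocyte, endothelium, mesenchyme, liver or erythroid lists. The part of depth, detected genes and these cells in the results was not tested, apart from the fits without such cells named below.

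The share of cells with Neurog3 transcript was lower at E14.5, and those of cells with Ins2, Iapp or Npy were higher. Shares of the hormone genes Ins1, Gcg, Sst and Ghrl overlapped between the days. Neurog3 reached at least 100 CPM in 12 of 29, 15 of 38 and 13 of 41 cells of the E14.5 sets, or 41.4%, 39.5% and 31.7%. At E13.5 it did so in 30 of 39, 17 of 25 and 8 of 13 cells, or 76.9%, 68% and 61.5%. Every E14.5 set lay below every E13.5 set (37.5% ± 5.12 against 68.8% ± 7.73, SD, n = 3 sets each, exact permutation test, two-sided, p = 0.1). With 3 sets against 3, 0.1 is the smallest p that this test can give, so no share can pass (adjusted p = 0.283 over the 17 genes compared). At 100 CPM the transcript behind the name progenitor was thus found in 40 of 108 cells at E14.5 and in 55 of 77 at E13.5, and the cells are called here by their sort.

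**Figure D1:**
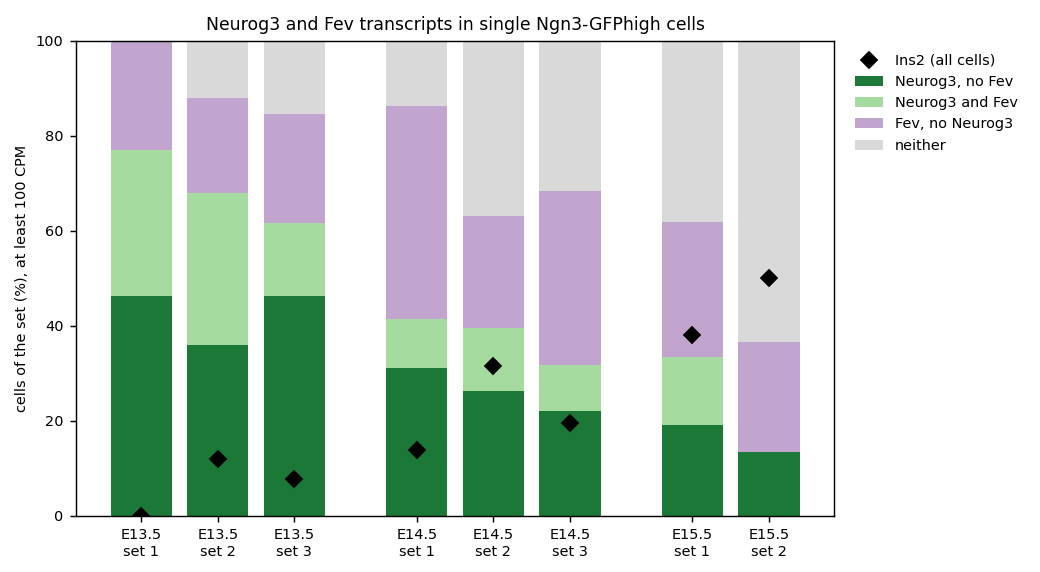
Each bar is a set of Ngn3-GFPhigh cells at E13.5, E14.5 or E15.5. Its height divides the cells of the set (%) by whether Neurog3 and Fev reached 100 CPM, and black diamonds give the share of all cells of the set with Ins2 at 100 CPM. Cells with Neurog3 but no Fev made up 36% to 46.2% of the E13.5 sets, 22% to 31% of the E14.5 sets and 13.3% to 19% of the E15.5 sets.

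Neurog3 and Fev together divide the cells. Neurog3 without Fev was carried by 28 of 108 cells at E14.5 and 33 of 77 at E13.5, with set shares of 26.4% ± 4.54 against 42.8% ± 5.86 (SD, n = 3 sets each). Both transcripts were found in 12 of 108 cells at E14.5 and 22 of 77 at E13.5 (11.1% ± 1.82 against 26.1% ± 9.26). Fev without Neurog3 was carried by 37 of 108 cells at E14.5 and 17 of 77 at E13.5 (35.0% ± 10.7 against 22.1% ± 1.78). Of the 37 cells at E14.5, 9 also had Ins2 at 100 CPM. In each of these 3 combinations the sets of the days did not overlap. The share of cells with Fev as such did overlap between the days (46.1% ± 9.17 against 48.1% ± 8.40, exact permutation p = 0.8). In the same sort at E15.5, Neurog3 was carried by 7 of 21 and 4 of 30 cells of the 2 sets (33.3% and 13.3%).

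**Figure D2:**
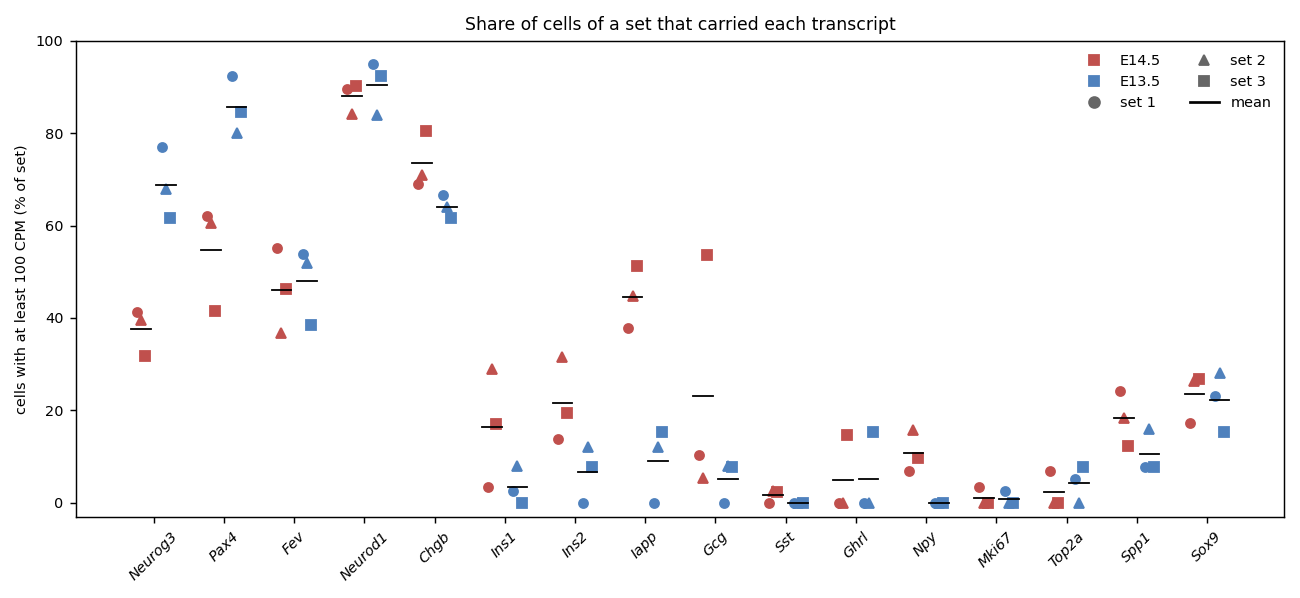
Percent of the cells of a set (vertical axis) with at least 100 CPM of 16 of the 17 genes compared, for the 3 E14.5 sets (red) and the 3 E13.5 sets (blue) of Ngn3-GFPhigh cells. Symbols mark the set number and black lines the mean of 3 sets. The sets of the days do not overlap for Neurog3 and Pax4, which are lower at E14.5, nor for Chgb, Ins2, Iapp and Npy, which are higher.

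Of the 17 genes, shares were lower in every E14.5 set than in every E13.5 set for 2 (Neurog3 and Pax4) and higher for 4 (Chgb, Ins2, Iapp and Npy). The other 11 overlapped. Without E13.5 set 2, the sets of 10 genes in all did not overlap. Pax4, a repressor that favours the beta and delta fates, was carried by 62.1%, 60.5% and 41.5% of cells of the E14.5 sets and by 92.3%, 80.0% and 84.6% at E13.5. The insulin gene Ins2 was carried by 13.8%, 31.6% and 19.5% of cells at E14.5 and by 0%, 12.0% and 7.69% at E13.5. Iapp, the islet amyloid peptide gene that beta cells secrete with insulin, was carried by 37.9%, 44.7% and 51.2% of cells at E14.5 and by 0%, 12.0% and 15.4% at E13.5. None of 96 leukocyte-marked cells of the Ngn3-GFPlow sort, counted over its 3 days with E15.5 among them, which should lack these genes, reached 100 CPM of Neurog3, Pax4, Ins1, Ins2, Iapp or Npy. For the hormone gene Gcg, 1 of the 96 did. Chgb, a granule protein gene, stood at 69%, 71.1% and 80.5% at E14.5 and at 66.7%, 64% and 61.5% at E13.5. Neurod1, a direct target and partner of the Neurog3 programme, was carried by 88.0% ± 3.33 of cells at E14.5 and 90.4% ± 5.68 at E13.5, so its shares overlapped (exact permutation p = 0.6).

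Shares and levels did not go together for every gene. The Neurog3 level among the cells that carried it was 2149, 2284 and 1682 CPM in the E14.5 sets and 1450, 1596 and 1655 CPM in the E13.5 sets, so it was higher at E14.5 although fewer cells carried it. Since the cells were picked on Neurog3, this is a description. Among cells with Ins2, its level was 9355, 25380 and 29210 CPM at E14.5, against 1001 and 382 CPM in E13.5 sets 2 and 3, which rest on 3 and 1 cells. Among cells with Iapp it was 2902, 12640 and 11890 CPM at E14.5, against 363 and 1778 CPM in E13.5 sets 2 and 3. Both the share of cells and the level per carrying cell were thus higher at E14.5 for Ins2 and Iapp, with very few cells behind the E13.5 levels.

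Ins2 and Neurog3 were not found in the same cells at E14.5. Of the 24 cells with Ins2 at E14.5, 0 also had Neurog3 at 100 CPM, against 2 of 4 such cells at E13.5. Npy, which encodes neuropeptide Y, a peptide that early beta cells carry, reached 100 CPM in 12 of 108 cells at E14.5, and all 12 also carried Ins2. At E13.5 it did so in 0 of 77 cells, which by counting error alone, with the cells of the 3 sets pooled, leaves room for 3.90% of cells and does not cover the spread between sets. Gcg, the glucagon gene of alpha cells, was carried by 10.3%, 5.26% and 53.7% of cells of the E14.5 sets and by 0%, 8.00% and 7.69% at E13.5, so the days overlapped (exact permutation p = 0.4). Of 27 cells with Gcg at E14.5, 22 lay in set 3 and 5 also carried Neurog3. Ghrl, the ghrelin gene of epsilon cells, reached 100 CPM only in set 3 of each day, in 6 of 41 cells at E14.5 and in 2 of 13 at E13.5. Sst, the delta cell hormone gene, was carried by 2 of 108 cells at E14.5 and 0 of 77 at E13.5.

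In counts summed per set, 0 of 17126 tested genes (0.0% in either direction) passed edgeR's quasi-likelihood test at an adjusted p of 0.05, and 1906 had an unadjusted p under 0.05. The smallest adjusted p was 0.0572. DESeq2 on the same sums called 754 of 15691 genes, 472 higher (3.01%) and 282 lower (1.8%) at E14.5, and limma on log2 mean CPM per cell called 31. The edgeR count was 15 without E13.5 set 2 and 2 without E14.5 set 1. In simulated counts the edgeR test called 4.62%, 46.2% and 58.5% of genes changed by 1, 2 and 3 log2 units in this comparison. The genes below are therefore given by their values in every set and by whether the sets of the days overlap. Over all tested genes every E14.5 set lay above every E13.5 set for 9.27% and below for 8.05%. Among genes of at least 50 CPM at either day the shares were 7.54% and 16.4%. Every count of list members below is to be read against these shares. With bulk sums of this kind, fewer cells with a transcript and less transcript per cell cannot be told apart, which is why shares and levels stand above.

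**Figure D3:**
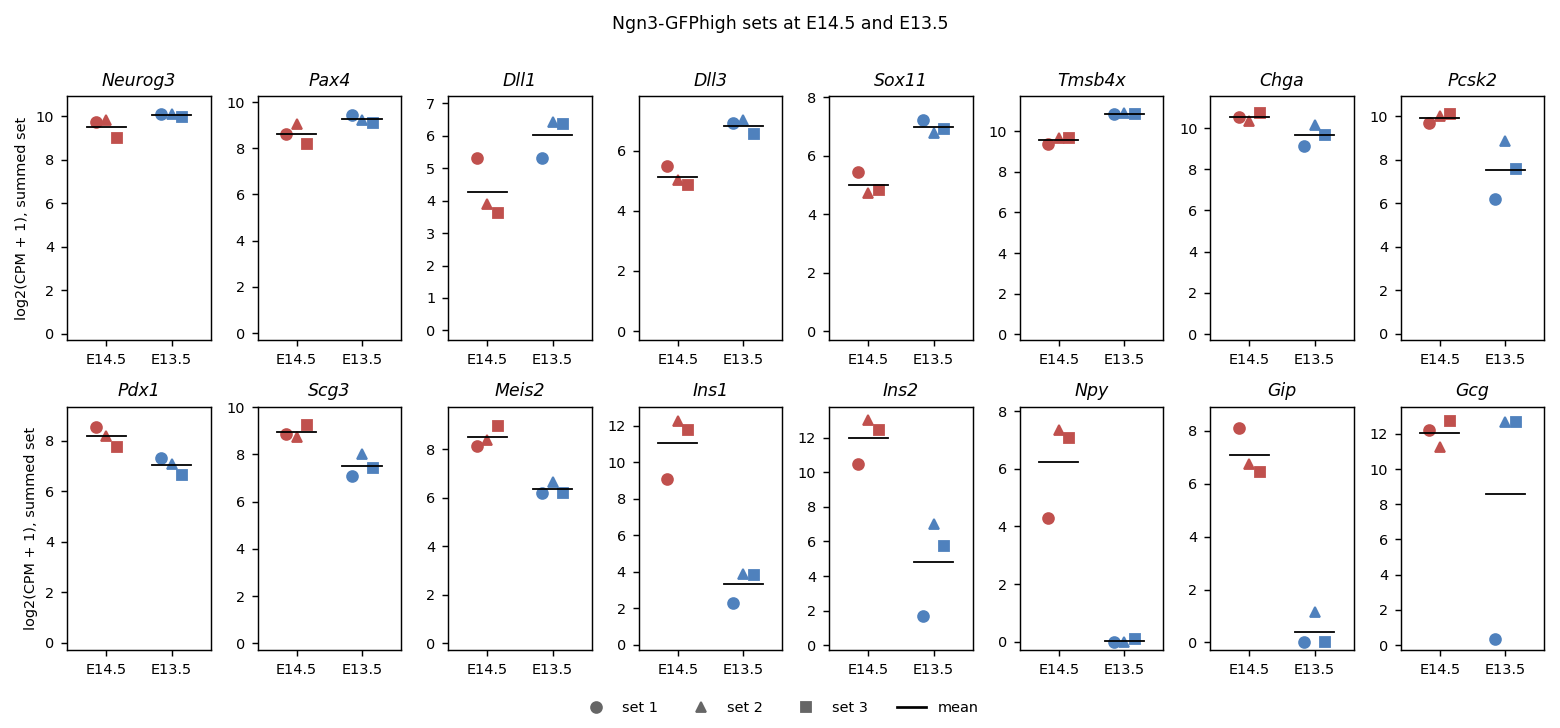
Log2(CPM + 1) of the summed counts of each Ngn3-GFPhigh set for 16 genes, E14.5 (red, left) and E13.5 (blue, right). Symbols mark the set number and lines the mean of the plotted log values. The days separate for 15 of the genes, while Gcg overlaps, with E13.5 set 1 near 0 CPM and sets 2 and 3 among the E14.5 values.

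Neurog3, Pax4, Hes6, Dll1, Mfng and Amotl2 were lower in every E14.5 set, and the other 8 endocrine progenitor genes overlapped. Of 14 endocrine progenitor genes, all of which were tested, 6 were lower in every E14.5 set than in every E13.5 set and 0 were higher, where 8.05% and 9.27% of all genes were. For genes of at least 50 CPM at either day, as most of this list are, these shares were 16.4% and 7.54%. The median log2 fold change of the list was -0.47, against 0.05 over all genes. DESeq2 called 3 as lower (Dll1, Mfng and Amotl2) and edgeR 0. Neurog3 itself (ENSMUSG00000044312, GRCm38 chromosome 10, 62133090 to 62134763, plus strand) had 858, 903 and 515 CPM at E14.5 and 1112, 1089 and 987 CPM at E13.5. The lowest E14.5 value was that of set 3, and the log2 fold change was -0.45 ± 0.22 (SE, edgeR adjusted p = 0.519). Pax4 had 390, 525 and 286 CPM at E14.5 and 695, 590 and 542 CPM at E13.5. Mfng, a glycosyltransferase that modifies Notch receptors, had 241, 214 and 161 CPM at E14.5 and 363, 471 and 320 CPM at E13.5 (log2 fold change -0.87 ± 0.20, edgeR adjusted p = 0.191, DESeq2 adjusted p = 0.00316). Amotl2, a cell junction and Hippo pathway protein gene, had 344, 327 and 214 CPM at E14.5 and 597, 568 and 524 CPM at E13.5. With TMM scaling the number of list members below the other day was 5, and with RLE it was 6.

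The delta-like ligand genes were lower in every E14.5 set, while the Jagged genes overlapped. Of 14 Notch pathway genes tested, 5 were lower in every E14.5 set (Dll1, Dll3, Dll4, Lfng and Mfng) and 0 were higher. DESeq2 called 3 as lower and edgeR 0. Dll1 and Mfng also stand on the endocrine progenitor list and are counted in both. Dll1, the ligand through which Neurog3-positive cells signal to their neighbours, had 38.7, 13.7 and 11.2 CPM at E14.5 and 38.8, 84.1 and 81.2 CPM at E13.5. The highest E14.5 set and the lowest E13.5 set were nearly level. Dll3, a relative of Dll1 that does not activate Notch in neighbours, had 43.9, 31.5 and 27.7 CPM at E14.5 and 119, 127 and 93.5 CPM at E13.5 (log2 fold change -1.69 ± 0.46, edgeR adjusted p = 0.254, DESeq2 adjusted p = 0.0112). Dll4 had 89.7, 87.0 and 81.2 CPM at E14.5 and 155, 154 and 104 CPM at E13.5. The receptors Notch1, Notch2 and Notch3, the ligands Jag1 and Jag2 and the target gene Hes1 overlapped between the days. Hes1 stood at 5.40, 1.25 and 1.16 CPM at E14.5 and 0.999, 0.187 and 5.48 CPM at E13.5. With TMM scaling 4 members were below the other day, and without cells that carried Gcg 3 were.

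Of 10 late precursor genes, 5 were lower in every E14.5 set and 2 were higher. Fev, a transcription factor of this stage, had 274, 256 and 297 CPM at E14.5 and 320, 494 and 470 CPM at E13.5. Neurod1 had 619, 514 and 624 CPM at E14.5 and 766, 762 and 947 CPM at E13.5. Lmx1b, Bex2 and Vwa5b2 were the other 3, and Vwa5b2 was the one that DESeq2 called lower. Peg10, a paternally expressed retrotransposon-derived gene, had 384, 224 and 472 CPM at E14.5 and 92.3, 196 and 67.1 CPM at E13.5 (log2 fold change 1.64 ± 0.41, edgeR adjusted p = 0.218). Cryba2, a crystallin gene of endocrine cells, was the second with higher sets. Of 9 pan-endocrine factor genes, 7 overlapped, among them Pax6, Nkx2-2, Insm1 and Rfx6, and Isl1 and Mlxipl were higher at E14.5. Isl1, a factor of hormone-producing cells, had 568, 698 and 1315 CPM at E14.5 and 195, 384 and 512 CPM at E13.5.

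Beta cell genes made up the longest list and the one with the greatest number of higher members. All 20 were tested, and 14 were higher in every E14.5 set and 0 lower, where 9.27% and 8.05% of all genes were. The share of higher members was similar in the granule (10 of 15) and erythroid (5 of 7) lists. The median log2 fold change of the beta cell list was 2.23. DESeq2 called 8 as higher and edgeR 0. Ins1 (ENSMUSG00000035804, chromosome 19, 52264297 to 52265476, plus strand) had 548, 4881 and 3430 CPM at E14.5 and 3.86, 14 and 13.3 CPM at E13.5. The log2 fold change was 8.22 ± 0.95 (edgeR adjusted p = 0.0572, DESeq2 adjusted p = 4.73e-32). Ins2 had 1425, 8217 and 5529 CPM at E14.5 and 2.25, 130 and 51.7 CPM at E13.5 (log2 fold change 6.45 ± 1.31, edgeR adjusted p = 0.153). Set 1 of E14.5 was the lowest of its day for both. Ins1 reached 100 CPM in 1 of 29, 11 of 38 and 7 of 41 cells of the E14.5 sets. At E13.5 it did so in 1 of 39, 2 of 25 and 0 of 13 cells, so its shares overlapped. Ins1 and Ins2 are near-identical copies, so how reads were divided between them is uncertain. Iapp had 1195, 5829 and 6250 CPM at E14.5 and 1.94, 51.6 and 306 CPM at E13.5.

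Npy had 18.6, 163 and 133 CPM at E14.5 and 0, 0 and 0.0741 CPM at E13.5. Its E13.5 value was 1 count in 77 cells, against 11171 counts at E14.5, a ratio of 7994 (95% interval 1434 to 315800, counting error only). The edgeR adjusted p was 0.0572, and Npy passed in 7 of 15 alternative fits. Pdx1, a factor of early pancreas and of beta cells, had 374, 292 and 216 CPM at E14.5 and 158, 135 and 100.1 CPM at E13.5 (log2 fold change 1.19 ± 0.25, edgeR adjusted p = 0.155, DESeq2 adjusted p = 0.000824). Slc30a8, the zinc transporter gene of insulin granules, had 42.4, 152 and 178 CPM at E14.5 and 0.139, 16 and 8.89 CPM at E13.5. Slc2a2, which encodes the glucose transporter GLUT2, had 88.9, 125.9 and 66.6 CPM at E14.5 and 0.0555, 25.3 and 5.19 CPM at E13.5. G6pc2, Abcc8, Pcsk1, Ero1lb, Sytl4, Nnat and Ppp1r1a were the other members with higher sets. Nkx6-1, a beta cell factor that progenitors also carry, overlapped, with 222, 210 and 116 CPM at E14.5 and 181, 179 and 89.7 CPM at E13.5. Mafa, a factor of mature beta cells, had 38 counts in all at E14.5 and 0 at E13.5.

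Most granule and exocytosis genes were higher in every E14.5 set. Of 15 granule and exocytosis genes tested, 10 were higher in every E14.5 set and 0 lower, with a median log2 fold change of 0.91, DESeq2 called 7 as higher and edgeR 0. Pcsk2, the convertase that trims prohormones, had 822, 1034 and 1115 CPM at E14.5 and 73.3, 461 and 189 CPM at E13.5 (log2 fold change 2.1 ± 0.52, edgeR adjusted p = 0.218). Chga, a granule matrix protein gene, had 1486, 1288 and 1704 CPM at E14.5 and 549, 1125 and 822 CPM at E13.5. Scg3, a granule sorting protein gene, had 460, 422 and 598 CPM at E14.5 and 136, 260 and 169 CPM at E13.5 (log2 fold change 1.42 ± 0.22, edgeR adjusted p = 0.0851). Rab3b, a small GTPase of regulated secretion, had 35.3, 59.7 and 55.2 CPM at E14.5 and 6.24, 11.1 and 2.74 CPM at E13.5. Syt7, Syt13, Stx1a, Vgf and Pcsk1n overlapped. Of 12 unfolded protein response genes, 3 were higher (Sdf2l1, Herpud1 and Dnajb9) and 0 lower, and the chaperone Hspa5 overlapped.

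Alpha cell genes divided. Of 11 tested, 4 were higher in every E14.5 set, among them Irx1, Ttr and Meis2, and 0 were lower. Gcg had 4770, 2423 and 6902 CPM at E14.5 and 0.277, 6607 and 6469 CPM at E13.5, so the days overlapped and E13.5 set 1 alone was near 0. Its log2 fold change was 0.15 ± 1.77, and it was -0.44 without E13.5 set 1 and -0.21 without E14.5 set 3. Meis2, a homeobox factor, had 285, 331 and 502 CPM at E14.5 and 72.8, 101 and 71.6 CPM at E13.5 (log2 fold change 2.22 ± 0.26, edgeR adjusted p = 0.0572). Of 7 other hormone genes, Ppy, Pyy and Rbp4 were higher in every E14.5 set. Ppy, the pancreatic polypeptide gene, had 57.6, 36.2 and 203 CPM at E14.5 and 1.86, 1.72 and 0.889 CPM at E13.5 (log2 fold change 6.0 ± 1.02, edgeR adjusted p = 0.112).

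Genes outside these lists were taken from the DESeq2 calls by the rule for named genes and so were chosen after their values were seen. Wipi1 and Tmsb4x lie outside that rule and were added for their edgeR adjusted p. Of the 754 calls, 348 had at least 50 CPM at either day and sets that did not overlap. Gip, the gene of the incretin of gut K cells, had 277, 107 and 85.6 CPM at E14.5 and 0, 1.20 and 0 CPM at E13.5, and reached 100 CPM in 13 of 108 cells against 0 of 77. Ripply3, a repressor gene of the Ripply family, had 49.6, 70.2 and 79.3 CPM at E14.5 and 1.17, 7.14 and 1.41 CPM at E13.5. Papss2, which makes the sulfate donor of the cell, had 364, 523 and 501 CPM at E14.5 and 34.8, 114 and 53.9 CPM at E13.5. Mapt, which encodes tau, and the mucin gene Muc4 were also among the 12 with the highest fold. Wipi1, an autophagy gene, had 89.9, 114 and 106 CPM at E14.5 and 31.5, 39.4 and 27.9 CPM at E13.5 (log2 fold change 1.68 ± 0.19, edgeR adjusted p = 0.0572). All these genes were higher in each E14.5 set.

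Among genes that were lower, Tmsb4x had sets that lay close together within each day. This actin-binding thymosin gene (ENSMUSG00000049775, chromosome X, 167207093 to 167209315, minus strand) had 665, 803 and 814 CPM at E14.5 and 1867, 1945 and 1829 CPM at E13.5. The log2 fold change was -1.28 ± 0.13 (edgeR adjusted p = 0.0572, DESeq2 adjusted p = 6.44e-19). Sox11, a SoxC transcription factor of embryonic progenitors, had 42.6, 25.3 and 27.1 CPM at E14.5 and 148, 108 and 120 CPM at E13.5 (log2 fold change -1.97 ± 0.28, edgeR adjusted p = 0.0713). Sox11 reached 100 CPM in 10 of 108 cells at E14.5 and 33 of 77 at E13.5. Plk3, a stress-responsive kinase gene, had 78.5, 54.9 and 43.8 CPM at E14.5 and 209, 169 and 180 CPM at E13.5. Timp3, a metalloproteinase inhibitor gene, and St8sia2, a polysialyltransferase gene, were lower in every E14.5 set, with E13.5 values that ranged from 25.3 to 112 and from 29.3 to 280 CPM. Afp and Serpina1b, both better known from liver, were lower too. Serpina1b belongs to a family of near-identical copies, and 215 CPM of Afp in E13.5 set 2 set its mean.

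Some replication genes were lower at E14.5, and mitotic genes overlapped. Of 16 S phase genes, 5 were lower in every E14.5 set (Mcm2, Mcm3, Mcm4, Cdc6 and Cdt1) and 0 higher. Mcm2, a subunit of the replicative helicase, had 109, 74.9 and 74.0 CPM at E14.5 and 172, 191 and 149 CPM at E13.5 (log2 fold change -0.96 ± 0.24, edgeR adjusted p = 0.218). None of the 18 G2/M genes separated the days. Top2a reached 100 CPM in 2 of 108 cells at E14.5 and 3 of 77 at E13.5, and Mki67 in 1 cell of each day. Of 10 cell cycle exit genes, 2 were lower in every E14.5 set (Cdkn1a and Gadd45g) and 1 was higher (Ccnd1). The median log2 fold change of that list was 0.0. Cdkn1a, which encodes the cell cycle inhibitor p21, had 470, 530 and 615 CPM at E14.5 and 791, 772 and 1367 CPM at E13.5. Of 10 epithelial junction genes, Cdh1 (E-cadherin) was higher in every E14.5 set, with 304, 233 and 336 CPM at E14.5 and 98.6, 191 and 179 CPM at E13.5. The claudin genes Cldn4 and Cldn6 were lower. These junction counts are near the shares over all genes and are no result about the list. Of 11 tested trunk and duct genes, 2 were higher in every E14.5 set (Krt18 and Glis3) and 2 lower (Krt8 and Krt7). The others overlapped, Sox9 and Spp1 among them. Without cells that carried Gcg, 0 of this list were lower.

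Markers of other cells moved with some of these groups. Of 7 tested erythroid genes, 5, all of them globins, were higher in every E14.5 set. The summed level of the list was 24.2 to 47.7 CPM at E14.5 and 5.63 to 27.4 CPM at E13.5. The leukocyte list summed to 18.9 to 36.02 CPM at E14.5 and 5.66 to 16.2 CPM at E13.5, with C1qa and Laptm5 higher and Csf1r lower in every E14.5 set, while C1qb overlapped and Ptprc, C1qc and Tyrobp stayed under 1 CPM. The acinar list summed to 194 to 469 CPM at E14.5 and 558 to 1353 CPM at E13.5. Clps, a colipase gene that made up most of this sum, had 367, 434 and 157 CPM at E14.5 and 1113, 999 and 525 CPM at E13.5. Cells with Neurog3 at 100 CPM carried Clps too, at 836, 920 and 258 CPM at E14.5 and 1231, 1268 and 830.5 CPM at E13.5. The acinar factors Ptf1a and Rbpjl were under 1 CPM in all 6 sets. Bhlha15, another acinar factor, was higher in every E14.5 set, with 24.9, 20.8 and 17.3 CPM at E14.5 and 10.3, 8.38 and 10.2 CPM at E13.5. The liver list summed to 14.4 to 17.2 CPM at E14.5 and 23.1 to 246.5 CPM at E13.5. The endothelium list summed to 21.2 to 29.5 CPM at E14.5 and 17.2 to 20.1 CPM at E13.5 with Cdh5, Emcn and Tek at 0, and the mesenchyme list to 39.9 to 79.8 CPM at E14.5 and 62.6 to 127 CPM at E13.5. The neural and glial list summed to 385 to 515 CPM at E14.5 and 695 to 940 CPM at E13.5, with Ednrb under 1 CPM in all 6 sets. Its members Gfra3 and Ret averaged 489 and 207 CPM at E14.5 in cells with Neurog3 at 100 CPM, and 752 and 211 CPM at E13.5. Of 11 tested immediate early genes, Fosb and Junb were higher in every E14.5 set (1 of them with TMM scaling) and 0 lower. Fos, which can respond to cell dissociation, had 533, 400 and 250 CPM at E14.5 and 257, 23.9 and 10.4 CPM at E13.5. Their part in the results was not tested.

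Promoters are shown for genes at both ends of the comparison, because Neurog3 and Neurod1 are basic helix-loop-helix factors that bind CANNTG (the E box), and Pdx1, Pax4, Isl1, Nkx6-1 and Meis2 have homeodomains, many of which bind TAAT. The windows are RefSeq promoters on GRCm38.p6, each 300 bases around the gene start, written 5′ to 3′ on the gene's strand. Capitals mark every match to CANNTG and to TAAT or its reverse ATTA, and both motifs were searched on both strands. No base belonged to matches of both motifs, although they abut in Gip. The Ins1 window (chr19:52264047-52264346, plus strand) held 3 TAAT and 4 CANNTG matches, the Iapp window (chr6:142298175-142298474, plus strand) 5 and 3, the Gip window (chr11:96024295-96024594, plus strand) 5 and 2, and the Neurog3 window (chr10:62132840-62133139, plus strand) 0 and 1.
Ins1: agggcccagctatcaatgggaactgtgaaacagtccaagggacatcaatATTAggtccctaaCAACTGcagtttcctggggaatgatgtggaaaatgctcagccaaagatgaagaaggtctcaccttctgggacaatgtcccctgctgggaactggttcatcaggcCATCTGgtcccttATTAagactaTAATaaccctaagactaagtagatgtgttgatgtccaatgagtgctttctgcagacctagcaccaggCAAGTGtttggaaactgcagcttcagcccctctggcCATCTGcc
Iapp: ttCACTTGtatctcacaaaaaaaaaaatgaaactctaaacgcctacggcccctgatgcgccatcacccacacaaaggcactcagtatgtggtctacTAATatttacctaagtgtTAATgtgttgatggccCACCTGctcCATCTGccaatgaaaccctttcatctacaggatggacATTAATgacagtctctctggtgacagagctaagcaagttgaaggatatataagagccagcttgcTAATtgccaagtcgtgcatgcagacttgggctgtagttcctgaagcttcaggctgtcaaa
Gip: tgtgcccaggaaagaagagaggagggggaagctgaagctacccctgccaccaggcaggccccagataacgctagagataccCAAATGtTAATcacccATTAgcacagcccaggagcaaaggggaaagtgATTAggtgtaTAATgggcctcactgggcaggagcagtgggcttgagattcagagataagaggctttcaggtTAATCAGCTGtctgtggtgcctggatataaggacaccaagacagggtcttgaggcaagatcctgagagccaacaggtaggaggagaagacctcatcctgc
Neurog3: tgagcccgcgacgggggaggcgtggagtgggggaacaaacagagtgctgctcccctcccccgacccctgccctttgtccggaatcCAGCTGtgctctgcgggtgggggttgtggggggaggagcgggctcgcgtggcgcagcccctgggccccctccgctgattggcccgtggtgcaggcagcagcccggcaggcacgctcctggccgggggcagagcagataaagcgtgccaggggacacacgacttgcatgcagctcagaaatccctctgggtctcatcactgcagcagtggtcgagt
Of 32851 windows of the same length, 58% held at least 1 TAAT match and 72.3% at least 1 CANNTG match, so holding either is common. The Npy window held neither motif in these letters. The windows of Sox11 and Dll3, both lower at E14.5, held 1 TAAT and 2 CANNTG matches each. That of Meis2, which was higher, held 2 and 0. The printed windows are examples, and motif counts were not compared between higher and lower genes. Ins2 and Pax4 had no window in the table.

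The day difference was next taken among cells that carried Neurog3. These were 12, 15 and 13 cells at E14.5 and 30, 17 and 8 cells at E13.5, picked at 100 CPM of Neurog3, a gene whose own share differed by day. Of 16293 tested genes, 0 passed edgeR (0.0% in either direction), and 761 had an unadjusted p under 0.05. In simulated counts of this comparison the test called 3.08%, 41.7% and 49.2% of genes changed by 1, 2 and 3 log2 units. Every E14.5 set lay above every E13.5 set for 4.19% of genes and below for 5.3%. The beta cell, granule and Notch lists had medians near 0 here, as the plot of list members shows. Of 18 beta cell genes tested, 0 were higher in every set (median log2 fold change -0.05), and of 15 granule genes 1 was (Scg5, median 0.10). Picking on Neurog3 left few cells with beta cell transcripts. Ins2 reached 100 CPM in 0 of 40 of these cells at E14.5 and 2 of 55 at E13.5, and Iapp and Npy in 0 at both days. Some members lay near 0, such as G6pc2 with 0.0724 to 0.238 CPM at E14.5 and 0 to 0.375 CPM at E13.5. The beta cell median was thus limited by the picking of cells. Of 14 Notch genes 1 was lower (Dll3, median -0.04), and of 16 S phase genes 0 were lower. Of 12 unfolded protein response genes, 2 were lower (Hspa5 and Hsp90b1) and 0 higher. Their median was -0.34, against 0.58 in the whole sort. The 14 endocrine progenitor genes had a median of 0.23, with Neurog3, Btg2 and Cbfa2t3 higher in every E14.5 set. Of these, Neurog3 was used to pick the cells.

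**Figure D4:**
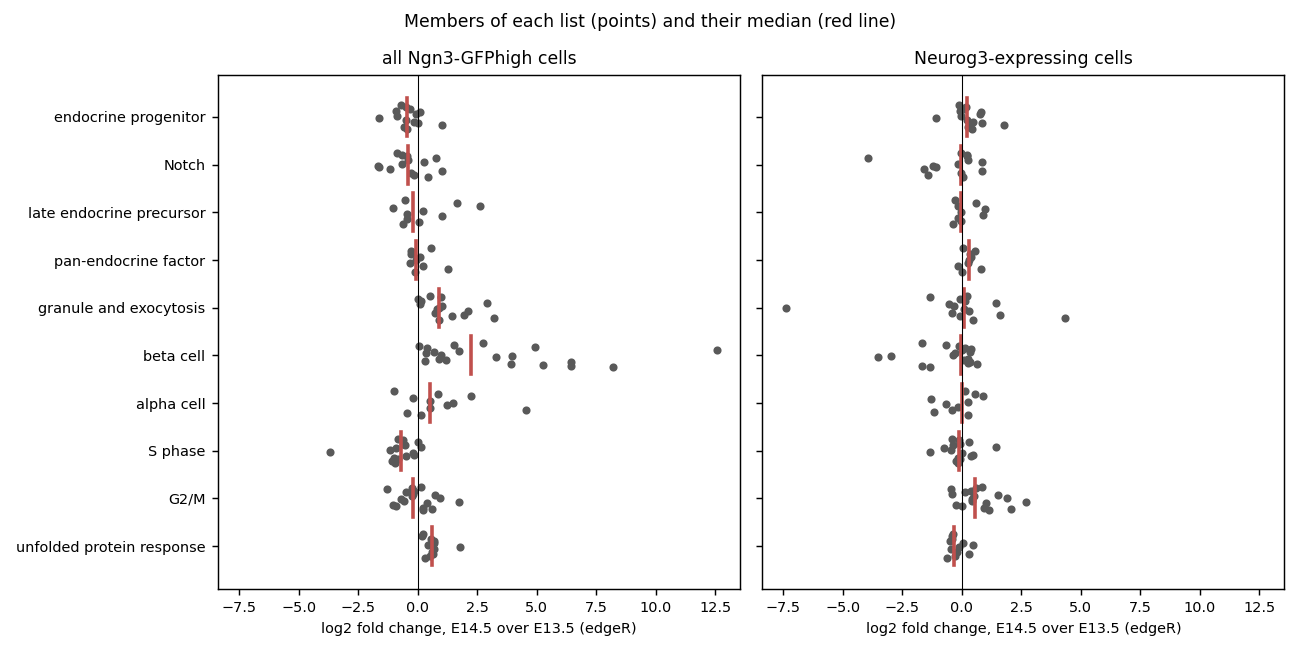
Log2 fold change of E14.5 over E13.5 (edgeR, horizontal axis) for the tested members of 10 lists, in all Ngn3-GFPhigh cells (left) and in cells with at least 100 CPM of Neurog3 (right). Points are genes and red lines list medians, which for beta cell genes were 2.23 in all cells and -0.05 in Neurog3-expressing cells. Few or none of the Neurog3-expressing cells carried Ins2, Iapp or Npy at 100 CPM.

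Values of single genes among Neurog3-expressing cells follow, to be read against the 4.19% and 5.3% of all genes whose sets separated. Sox11 had 38.5, 37.7 and 46.3 CPM at E14.5 and 178, 127 and 179 CPM at E13.5, with no overlap. Its log2 fold change was -1.95 ± 0.26, close to the -1.97 of the whole sort, and it had the lowest p of all genes here (edgeR p = 5.41e-05 of 16293 genes, adjusted p = 0.823). Sox11 reached 100 CPM in 5 of 40 Neurog3-expressing cells at E14.5 and 31 of 55 at E13.5. Dll3 had 82.3, 35.0 and 43.1 CPM at E14.5 and 119, 155 and 108 CPM at E13.5. Tmsb4x had 1438, 1699 and 2001 CPM at E14.5 and 2314, 2318 and 2696 CPM at E13.5, a log2 fold change of -0.47 ± 0.15. Gfra3, the receptor gene for artemin, had 586, 411 and 469 CPM at E14.5 and 705, 841 and 711 CPM at E13.5. Btg2, an antiproliferative gene that Neurog3-positive cells carry, had 1217, 1100 and 1296 CPM at E14.5 and 884, 787 and 1013 CPM at E13.5. Runx1t1, a corepressor gene, had 290, 364 and 384 CPM at E14.5 and 265, 170 and 110 CPM at E13.5. Tle6, a Groucho family gene, had the second lowest p (log2 fold change 1.4 ± 0.22). Sox11 and Tle6 were singled out after their values were seen.

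The other cells of the gate, below 100 CPM of Neurog3, numbered 17, 23 and 28 at E14.5 and 9, 8 and 5 at E13.5. They are described by values, since they were singled out after the data were seen. In them Ins2 had 2359, 13540 and 7913 CPM at E14.5 and 0, 278 and 88.3 CPM at E13.5. Meis2 had 448, 498 and 626 CPM at E14.5 and 126.3, 240 and 49.7 CPM at E13.5. Among Neurog3-expressing cells Meis2 overlapped, with 36.4, 72.6 and 214 CPM at E14.5 and 56.3, 35.7 and 86.6 CPM at E13.5. Cldn4 had 378, 290 and 406 CPM at E14.5 and 1008, 860 and 1147 CPM at E13.5 in cells below the threshold. Fev had 269, 225 and 281 CPM at E14.5 and 610, 462 and 462 CPM at E13.5 there. Sox11 and Pdx1 overlapped in these cells, Pdx1 with 540, 434 and 263 CPM at E14.5 and 296, 189 and 164 CPM at E13.5. Whether the differences between Neurog3-expressing and other cells exceed their spread was not tested.

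The same sort at E15.5, in 2 sets, gives the next day in time. Ins2 had 2.25, 130 and 51.7 CPM in the E13.5 sets, 1425, 8217 and 5529 CPM in the E14.5 sets and 7300 and 11150 CPM in the E15.5 sets. Neurog3 had 1112, 1089 and 987 CPM at E13.5, 858, 903 and 515 CPM at E14.5 and 537 and 410 CPM at E15.5. Sox11 had 148, 108 and 120 CPM at E13.5, 42.6, 25.3 and 27.1 CPM at E14.5 and 5.82 and 7.70 CPM at E15.5. Wipi1 had 31.5, 39.4 and 27.9 CPM at E13.5, 89.9, 114 and 106 CPM at E14.5 and 182 and 198 CPM at E15.5. Gip did not follow this order, with 0, 1.20 and 0 CPM at E13.5, 277, 107 and 85.6 CPM at E14.5 and 38.7 and 27.7 CPM at E15.5. These E15.5 values were not tested against the other days.

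To ask whether a day difference belonged to the strong-reporter sort, it was set against that of Ngn3-GFPlow cells (104 cells in 5 sets at E14.5 and 118 in 3 at E13.5) in an interaction test. Ngn3-GFPlow cells were of several types, and 31 of 104 at E14.5 and 51 of 118 at E13.5 carried leukocyte markers. In simulated counts of this comparison the test called 0%, 4.76% and 28.1% of genes changed by 1, 2 and 3 log2 units. Genes that do not pass are therefore not shown to be alike in both sorts. Of 18989 tested genes, 4 passed, all with a higher day difference in Ngn3-GFPhigh cells (0.0211%), and 0 (0.0%) passed in the other direction. They were Abcc8, Npy, Rab20 and Dnase1l1. The count was 149 (81 higher and 68 lower) without Ngn3-GFPlow E13.5 set 1, and 7 without Ngn3-GFPhigh E13.5 set 2, Ngn3-GFPlow E14.5 set 2 or Ngn3-GFPlow E14.5 set 5. It was 2 without Ngn3-GFPhigh E13.5 set 1, and 8 without cells of other types.

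Abcc8, the sulfonylurea receptor subunit of the potassium channel that couples glucose to insulin release, had 824, 570 and 1031 CPM at E14.5 and 310, 564 and 378 CPM at E13.5 in Ngn3-GFPhigh sets. In Ngn3-GFPlow sets it averaged 41.6 ± 14.52 CPM at E14.5 (SD, n = 5) and 263 ± 122 CPM at E13.5 (SD, n = 3). The difference of the day differences was 3.6 ± 0.53 log2 units (edgeR adjusted p = 0.0289), and the call was lost in 9 of 14 fits without 1 set, over a range of 0.00167 to 0.397 in all its alternatives. Npy averaged 0.0195 ± 0.0304 CPM at E14.5 (SD, n = 5) in Ngn3-GFPlow sets and had 0, 11.3 and 26.2 CPM in those of E13.5, against which its values in Ngn3-GFPhigh sets given above ran the opposite way (difference 21.36 ± 2.64, edgeR adjusted p = 0.00421). Npy lost its call without Ngn3-GFPhigh E13.5 set 1 (adjusted p = 0.0690) or set 3 (adjusted p = 0.0645), over a range of 1.66e-05 to 0.0690 in all its alternatives.

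Rab20, a small GTPase gene of endosomes, and Dnase1l1, a DNase I-like gene, had no count in Ngn3-GFPhigh cells at E13.5. Rab20 had 5.69, 3.61 and 4.76 CPM in Ngn3-GFPhigh sets at E14.5 and no count in any of the 77 cells at E13.5. With E13.5 set to 3 counts in all, E14.5 would be 120.0-fold higher. That value covers counting error of reads only. Rab20 was detected in 13 of 108 cells at E14.5 and 0 of 77 at E13.5. Its reads thus came from few cells, and the value is no lower bound where cells are counted. In Ngn3-GFPlow sets Rab20 averaged 20.8 ± 8.04 CPM at E14.5 and 13.9 ± 3.56 CPM at E13.5 (difference 9.25 ± 0.90, edgeR adjusted p = 0.00211). Dnase1l1 had 3.48, 2.71 and 4.48 CPM at E14.5 and no count at E13.5 in Ngn3-GFPhigh sets. Reckoned in the same way, with the same limit, E14.5 would be 92.1-fold higher, with reads from 12 of 108 cells. In Ngn3-GFPlow sets Dnase1l1 averaged 18.6 ± 8.43 CPM at E14.5 and 18.9 ± 7.70 CPM at E13.5 (difference 9.46 ± 1.07, edgeR adjusted p = 0.00421). For genes with no count in a group the fitted difference depends on the prior count and is no measure of size. With the set number as a block none of the 4 passed. With day and set number together as a block, chosen after the data were seen, Npy passed (edgeR adjusted p = 0.025), while Rab20 and Dnase1l1 (both 0.303) and Abcc8 (0.397) did not. The labels do not say that both sorts of a day with the same set number were prepared together, and this was not tested further. Without cells of other types all 4 passed, with adjusted p between 0.00704 and 0.0325 (edgeR).

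**Figure D5:**
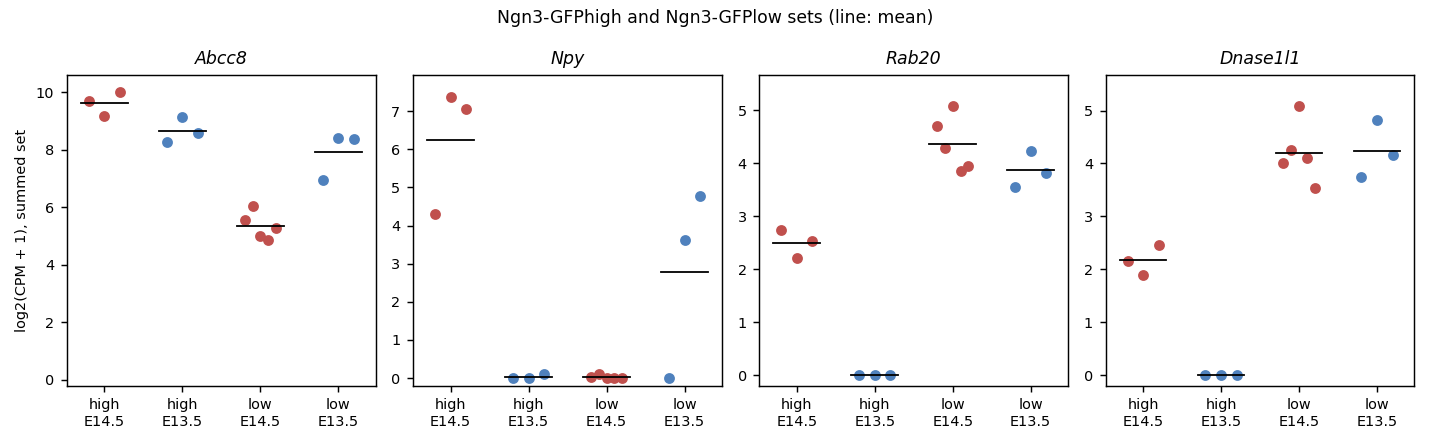
Log2(CPM + 1) of each set for the 4 genes that passed the interaction test, in Ngn3-GFPhigh and Ngn3-GFPlow sets at E14.5 (red) and E13.5 (blue), with the mean of the log values as a line. Rab20 and Dnase1l1 are at 0 in the Ngn3-GFPhigh E13.5 sets and above 2 CPM in the other 11 sets.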

How the data were processed

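Cells were sorted on the reporter, and per the labels' protocols cDNA was made by Smart-seq2 with PCR and no molecular identifiers, so intervals and floors cover counting error only. Per the submitters' processing notes the authors used mm10, TopHat2 2.1.0, Bowtie2 and HTSeq 0.6.0. The role of each tool, strand handling and the gene annotation are not given in the sources used here. The deposited table held whole-number counts for 40824 genes and 92 ERCC rows, 1 column per cell, and no 2 of the cells used were identical. ERCC rows were left out, and the deposited TPM values and droplet files were not used. The table gives 0 mitochondrially encoded genes.

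Counts were summed per set, which is the number before the cell number in a title (11 to 71 cells, 11344092 to 79253014 counts). Genes were tested with edgeR 4.0.16 in R 4.3.3 (TMM, filterByExpr, quasi-likelihood F test, Benjamini-Hochberg adjusted p under 0.05). The main fit held the 8 Ngn3-GFPhigh sets of E13.5, E14.5 and E15.5, which share 1 estimate of the spread. The fit of Neurog3-expressing cells held 7 sets with at least 5 such cells, and the interaction fit 18 sets. A standard error is the fold change on the log2 scale divided by the square root of its F. DESeq2 1.42.0 and limma 3.58.1 (log2 of mean CPM per cell + 1) were alternatives. Shares were compared with exact two-sided permutation tests (scipy 1.17.1). All 3 fits were tested on simulated data in which 200 genes were changed.

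The cells, the 22 gene lists and the tests were chosen with earlier results of these data known, so no list count is independent evidence. Genes to be named were the 12 with the largest change in each direction (6 in the other fits) among those that passed with at least 50 CPM at either day and sets that did not overlap, plus list members. Under edgeR this rule named no gene in the whole sort or in Neurog3-expressing cells, and Npy and Abcc8 in the interaction. All 247 list genes matched a row. A cell carried another cell type when at least 4 markers of a list had 100 CPM. Gene positions are GENCODE on GRCm38, matched by gene identifier. Alternatives were other normalizations, filters, tools, thresholds and left-out sets, and fits without cells that carried Gcg were added after the data were seen. A few list members are counted but not reported here by name.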

Additional observations from a re-analysis of the deposited data

Results flagged for a closer look

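In 4 genes the day difference of Ngn3-GFPhigh cells and that of Ngn3-GFPlow cells differed by edgeR's interaction test, as differences of log2 fold changes of 3.6 for Abcc8, 21.36 for Npy, 9.25 for Rab20 and 9.46 for Dnase1l1. Sets were not paired by number in that test. With day and set number together as a block, Rab20 and Dnase1l1 (both edgeR adjusted p = 0.303) and Abcc8 (0.397) did not pass. Npy passed with that block. With the set number alone as a block, none of the 4 passed. Abcc8 was higher at E14.5 in Ngn3-GFPhigh sets and lower at E14.5 in Ngn3-GFPlow sets. Npy was detected in 20 of 108 Ngn3-GFPhigh cells at E14.5 and, with 1 count, in 1 of 77 at E13.5, and in Ngn3-GFPlow sets its mean at E13.5 rests on sets 2 and 3. Rab20 and Dnase1l1 had no count in the 77 Ngn3-GFPhigh cells of E13.5 and were detected in 13 and 12 of the 108 cells of E14.5. In Ngn3-GFPlow cells Rab20 was detected in 40 of 104 cells at E14.5 and 36 of 118 at E13.5, and Dnase1l1 in 38 of 104 and 48 of 118. Of leukocyte-marked Ngn3-GFPlow cells, 12 of 31 at E14.5 and 15 of 51 at E13.5 had a count of Rab20, and 18 of 31 and 27 of 51 had a count of Dnase1l1. Groups of 3 sets were not tested for a set far from the others. Among the 5 Ngn3-GFPlow sets of E14.5 no set passed Dixon's test for any of the 4 genes. The widest gap was that of Dnase1l1, at 0.667 of the range against a critical value of 0.71, with 32.9 CPM in set 3 and 10.7 to 18.1 CPM in the other sets.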

How the results depend on the processing

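In the whole sort no gene passed in the main edgeR fit, with the 6 sets of E13.5 and E14.5 alone, or with RLE normalization. The number was 3 with the Ngn3-GFPlow sets, 754 with DESeq2, 28 with no filter on low counts, 31 with limma, 5 without cells of other types and 7 without Gcg-expressing cells. Without 1 set it ran from 0 to 15. As a replicate block, the set number gave 2 (Npy and Ins1), while same-numbered Ngn3-GFPhigh sets of the 2 days correlated at 0.0916, 0.00319 and 0.0586, under the 0.1 taken to mark pairs. In Neurog3-expressing cells the number was 0 in the main fit and all 10 alternatives, the replicate block included. In the interaction, where 4 passed, the number was 8 without cells of other types, 4 with RLE normalization, 0 with the replicate block, 2 with a replicate block of day and set number and 2 to 149 without 1 set. Within a day, same-numbered Ngn3-GFPhigh and Ngn3-GFPlow sets correlated at 0.0762, 0.0432 and 0.0582 at E14.5 and at 0.130, 0.0731 and 0.0786 at E13.5. Each Ngn3-GFPhigh set correlated best with its own number there, and 0.130 (set 1 at E13.5) exceeded 0.1. The main interaction fit did not pair sets by number. The labels do not state shared preparation, and it was not tested. Of 17 genes, the sets of 6 did not overlap in their shares at 100 CPM, 5 at 50 CPM, 7 at 500 CPM and 6 to 10 without 1 set. The log2 fold changes of 41 genes named in the whole sort kept their direction in all alternatives, with the exception of Gcg, which was -1.81 without Gcg-expressing cells, -0.44 without E13.5 set 1 and -0.21 without E14.5 set 3, in a range of -0.44 to 0.58 without 1 set. Mfng in Neurog3-expressing cells was 0.10 without E13.5 set 2 and 0.01 without E14.5 set 3, in a range of -0.15 to 0.10 without 1 set. Causes were not tested. At 3 sets a day, changes of 1 log2 unit were called in 4.62% of simulated cases, so the count of 0 in the whole sort does not show that the days are alike.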

Other observations

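In Ngn3-GFPhigh cells 26 genes had no count at E13.5 and at least 1 CPM in every E14.5 set, among them Rab20, Dnase1l1, Wnt3, Nr4a3, Ism1 and Gsx1. The reverse held for 3 genes (Gm26415, Plin1 and Zcchc12). The E14.5 sets held 108 cells and the E13.5 sets 77, with more detected genes per cell at E14.5, and the part of both in these counts was not tested.

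Globin transcripts were detected in single cells of both sorts. Hba-a1 had a count in 53 of 108 cells at E14.5 and 9 of 77 at E13.5, and Hbb-y in 44 of 108 and 10 of 77. In Ngn3-GFPlow cells Hba-a1 had a count in 29 of 104 cells at E14.5 and 17 of 118 at E13.5, and Hbb-y in 20 of 104 and 25 of 118.

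Gip was detected in 31 of 108 Ngn3-GFPhigh cells at E14.5 and 2 of 77 at E13.5, and in 6 of 104 and 20 of 118 Ngn3-GFPlow cells of the same days.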
